A study of Mus musculus with 3 samples.

Results

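SR proteins and heterogeneous nuclear ribonucleoproteins (hnRNPs) were examined in mouse thymocytes sorted as CD4+ CD8+ (double positive, DP), the intermediate stage of T cell development in the thymus. The genes are those with a probe set whose only platform symbol is Srsf followed by a number or begins with Hnrnp. There were 27 of them, 10 Srsf and 17 Hnrnp genes, of 19938 genes with a probe set of their own. Where a gene had several probe sets, the one with the highest mean over the arrays stood for it. The samples are 3 cohorts of wild-type C57BL/6 littermates aged 5 to 6 weeks, 1 Affymetrix array per cohort, with cells sorted on beads for CD8 and then for CD4. They form 1 group with no second condition, so genes were described across the 3 cohorts. The protocol includes a formaldehyde step ahead of the sort, and whether it was applied to the cells used for RNA is not stated. The surrounding project profiled binding of Ets1, Runx1 and polymerase II in Rag2 -/- thymocytes and of E47 in DP cells.

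SR proteins bind short elements in exons through RNA recognition motifs and recruit the splicing machinery through tails rich in arginine and serine, which SRPK and CLK kinases phosphorylate. The hnRNPs coat nascent transcripts, and many of them oppose the use of nearby splice sites, act in mRNA export or control mRNA decay. In T cells the family is best known through Hnrnpll, a relative of Hnrnpl, which promotes skipping of the variable exons of Ptprc, the gene of the phosphatase CD45. Most SR and hnRNP genes also control their own transcripts by alternative splicing, and a value per gene does not separate productive from unproductive forms.

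The promoters of 25 of the 27 genes were present in the RefSeq promoter table (build GRCm38.p6), as 37 different windows of 250 bases before an annotated start. Hnrnpll and Hnrnpul2 were not matched. The windows were rich in CpG dinucleotides, with a median of 23 per window, against 17 in windows of genes above background on all arrays (defined below) and 6 in all 32851 windows. Letters linked to the factors that the project mapped and to general promoter elements were searched on both strands. CCGGAAGT, a sequence bound by ETS factors, occurred in 6 member windows of 5 genes (16.2%), against 7.17% of the windows of genes above background and 2.88% of all windows. TGTGGT, a RUNX sequence, occurred in 5.41% of member windows, against 10.5% and 14.0%, and the E-box CANNTG in 56.8%, against 55.7% and 66.2%. CCAAT occurred in 48.6% of member windows, against 35.4% and 33.8%, and TATAAA in 8.11%, against 5.74% and 12.4%. Windows of 1 gene can overlap, no test was made, and a match is a description of letters and not of binding.

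The windows below, each the only one of its gene, are those of the paralogue that was matched (Hnrnpl), of the genes with the widest spread between cohorts in either direction (Hnrnpc and Hnrnph2), of an SR gene with ETS letters (Srsf5) and of the only gene below background (Srsf12). Capitals mark CCAAT on either strand in the first 3, CCGGAAGT on either strand in Srsf5 and CANNTG in Srsf12. No marked match overlapped another of the 5 motifs. Hnrnpl is at chr7:28810640-28810889 (plus strand), Hnrnpc at chr14:52104022-52104271 (minus strand) and Hnrnph2 at chrX:134600929-134601178 (plus strand). Srsf5 is at chr12:80945249-80945498 and Srsf12 at chr4:33209022-33209271, both on the plus strand. Sequences run 5′ to 3′ toward the start.
Hnrnpl: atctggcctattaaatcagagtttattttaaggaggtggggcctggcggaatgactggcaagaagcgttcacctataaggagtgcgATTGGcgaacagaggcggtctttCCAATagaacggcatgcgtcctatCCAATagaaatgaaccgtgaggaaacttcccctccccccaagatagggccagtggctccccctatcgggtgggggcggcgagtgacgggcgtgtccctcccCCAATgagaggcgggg
Hnrnpc: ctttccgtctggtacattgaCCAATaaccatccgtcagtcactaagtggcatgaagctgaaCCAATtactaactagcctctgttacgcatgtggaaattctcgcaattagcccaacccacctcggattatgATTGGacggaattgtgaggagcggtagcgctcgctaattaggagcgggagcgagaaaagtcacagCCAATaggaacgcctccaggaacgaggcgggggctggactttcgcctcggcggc
Hnrnph2: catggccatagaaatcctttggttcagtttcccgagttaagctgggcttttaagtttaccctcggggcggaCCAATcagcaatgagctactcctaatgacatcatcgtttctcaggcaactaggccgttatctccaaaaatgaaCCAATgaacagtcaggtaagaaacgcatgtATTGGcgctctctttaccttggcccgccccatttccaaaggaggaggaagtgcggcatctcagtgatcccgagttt
Srsf5: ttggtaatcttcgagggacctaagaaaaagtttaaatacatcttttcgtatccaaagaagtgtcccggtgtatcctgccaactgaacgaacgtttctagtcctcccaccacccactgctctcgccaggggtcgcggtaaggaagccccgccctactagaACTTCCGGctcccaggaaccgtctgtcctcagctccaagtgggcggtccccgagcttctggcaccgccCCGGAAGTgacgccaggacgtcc
Srsf12: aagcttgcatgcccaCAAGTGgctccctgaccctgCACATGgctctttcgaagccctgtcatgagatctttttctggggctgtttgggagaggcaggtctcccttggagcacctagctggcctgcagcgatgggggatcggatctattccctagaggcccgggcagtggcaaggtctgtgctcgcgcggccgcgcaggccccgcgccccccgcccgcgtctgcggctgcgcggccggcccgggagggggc
Hnrnpl and Hnrnpc each held 4 CCAAT matches and Hnrnph2 held 3, with centres between 14 and 228 bases before the start. Srsf5 held 2 ETS matches, 87 and 19 bases before it. Hnrnpc and Hnrnph2 were shown for their spread between cohorts (values below), and a link between CCAAT and that spread was not tested.

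A value was called above background on an array where it exceeded a limit of 7.52, 7.51 or 7.48 (arrays 1, 2 and 3), the 95th percentile there of 107 probe sets for 105 genes typical of other organs such as liver, muscle and brain. The sort markers Cd4, Cd8a and Cd8b1 and all 11 measured DP stage genes lay above it on every array. Among markers of other cells, Cd79b (1 of 7 B cell genes), H2-Ab1 (1 of 11 myeloid and dendritic genes), Cldn4 (1 of 10 thymic epithelial genes) and Pecam1 (1 of 9 stromal and endothelial genes) also lay above it on every array. Cd74, H2-Aa, Krt8, Krt18 and Col1a1 did so on some arrays, and the other genes of these lists, such as Cd79a, Csf1r and Foxn1, and all 4 erythroid genes on none. Array 1 stood apart. Pearson's r over 28939 probe sets was 0.993 between array 1 and either other array and 0.996 between arrays 2 and 3. Immediate-early and stress genes, 22 of 24 of which were highest on array 1 (all genes, 34.5%), deviated from their means by 0.61, -0.32 and -0.29 log2 units on arrays 1, 2 and 3. In the opposite direction, 10 of 11 DP stage genes were lowest on array 1 (all genes, 39.3%), with deviations of -0.15, 0.076 and 0.070, and Rag2 had 8.69, 9.51 and 9.54. Thymic epithelial genes were lowest there in 8 of 10 cases, with deviations of -0.16, 0.050 and 0.11. Of the 11 myeloid and dendritic markers, 8 were highest on array 1 (all genes, 34.5%) and 8 were lowest on array 2 (all genes, 27.8%). The list deviated by 0.27, -0.28 and 0.0145, with array medians of 6.75, 6.75 and 6.67. Cd74 had 8.83, 7.27 and 8.05. Xist, named after its values were seen, had 11.65, 5.40 and 5.68. Tests that rest on array 1 are therefore given with and without it. Whether any of these differences has a part in them was not tested.

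All but 1 of the measured genes were expressed in DP thymocytes, and their spread between cohorts was about that of other expressed genes. Of the 27 genes, 26 lay above background on all 3 arrays, against 40.1% of all genes (7989 of 19938). The same 26 of 27 were counted with the 99th percentile as the limit, which 31.9% of all genes passed, and with the background median plus 1 log2 unit, which 45.5% passed. The median over members of the 3-array mean was 11.49 ± 0.05 log2 units (SD of the array medians, n = 3), against 6.85 ± 0.01 for all genes. Values of different probe sets also depend on probe affinity, so levels of single genes are not ranked against each other. In bulk samples, fewer cells expressing a gene and less RNA per cell cannot be told apart.

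**Figure D1:**
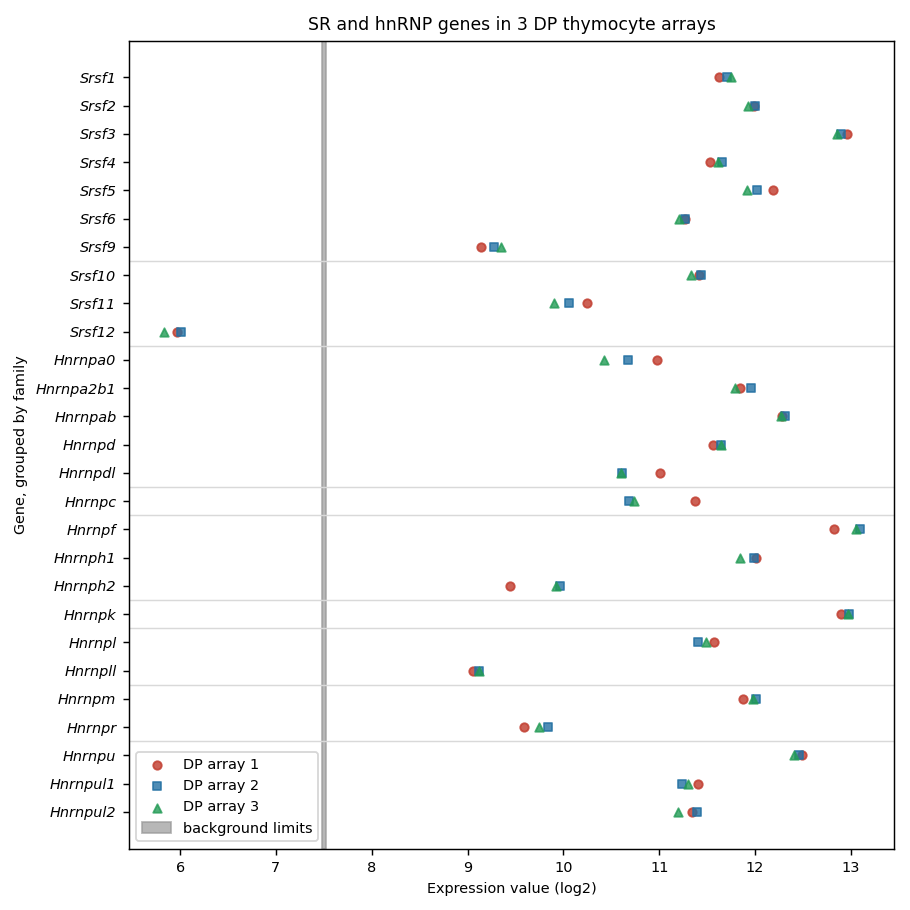
Expression values (log2, x axis) of the 27 SR and hnRNP genes (rows, grouped by family) on DP arrays 1, 2 and 3 (circles, squares and triangles), with the grey band at the background limits of 7.48 to 7.52. All genes except Srsf12 lie to the right of the band, and most symbols of 1 gene nearly coincide.

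All 7 classical SR genes lay above background on every array. Srsf1, the prototype of the family, which helps define 5′ splice sites, had 11.62, 11.71 and 11.75 on arrays 1, 2 and 3. Srsf2, the speckle protein SC35, which activates exons through exonic enhancers, had 11.99, 12.00 and 11.93. Both genes stayed within 0.13 log2 units over the cohorts. Srsf3, the smallest SR protein, which also acts in mRNA export, had 12.96, 12.90 and 12.85. Srsf6 had 11.27, 11.27 and 11.21, with an SD of 0.035. Srsf4 (11.60 ± 0.06, SD, n = 3 here and below) and Srsf9 (9.26 ± 0.11) completed the set together with Srsf5. Srsf5 had 12.19, 12.02 and 11.92, an SD of 0.14, which was the largest of the 7 on the deposited scale but not under quantile normalization (0.081).

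The SR-like genes were less uniform. Srsf10, which represses splicing when it is dephosphorylated in mitosis or heat shock, had 11.41, 11.44 and 11.33. Srsf11, an SR-related protein also called p54, had 10.25, 10.06 and 9.90, an SD of 0.18. Srsf12 had 5.97, 6.01 and 5.83, below the limit on every array and also below the limit set at the background median plus 1 log2 unit (7.03, 7.02 and 7.06). Srsf12 was thus not detected above background, which does not show that its transcript is absent.

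All 17 hnRNP genes lay above background on every array. Among the A/B and D types, Hnrnpab had 12.28, 12.31 and 12.27, the smallest SD of all members on the deposited scale at 0.021. That SD was 0.087 under quantile normalization and 0.028 without array 1, where other members had smaller ones. Hnrnpa2b1 (11.86 ± 0.09) and Hnrnpd (11.61 ± 0.05), which encodes the AU-rich element binding protein AUF1, were close to steady as well. Hnrnpa0, which also binds AU-rich elements, had 10.98, 10.67 and 10.42, with all arrays apart. Hnrnpdl, a relative of Hnrnpd, had 11.01, 10.61 and 10.60, so that array 1 alone differed. Hnrnpc, which binds uridine tracts on nascent transcripts, had 11.37, 10.68 and 10.74, and array 1 was again the high one.

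The products of the F/H type bind runs of guanine. Hnrnpf had 12.82, 13.09 and 13.05, and Hnrnph2 had 9.44, 9.96 and 9.92, both with array 1 as the low one. Their relative Hnrnph1 (11.95 ± 0.09) was lowest on array 3, at 11.84. Hnrnpk, which binds cytosine-rich RNA through KH domains, had 12.90, 12.98 and 12.97, and Hnrnpm, which binds GU-rich RNA, had 11.87, 12.01 and 11.98. Neither spanned more than 0.14 log2 units. Hnrnpr had 9.59, 9.84 and 9.74. Hnrnpu, which links nascent RNA to chromatin, had 12.49, 12.46 and 12.41, and its relatives Hnrnpul1 and Hnrnpul2 had 11.31 ± 0.08 and 11.31 ± 0.10.

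Hnrnpll and its paralogue Hnrnpl were both expressed. Hnrnpll had 9.06, 9.12 and 9.12 on arrays 1, 2 and 3, at least 1.54 log2 units above the limit of each array, and Hnrnpl had 11.57, 11.40 and 11.49. The SD of Hnrnpll was 0.035 and that of Hnrnpl 0.085, against a median SD of 0.11 over all genes. The largest ratio between any 2 arrays was 1.04-fold for Hnrnpll and 1.13-fold for Hnrnpl. Neither passed the variance test described below (limma, adjusted p = 0.999 for Hnrnpll and 0.989 for Hnrnpl), which does not show that the cohorts were alike. Ptprc, the Hnrnpll target, had 12.07, 12.26 and 12.32. That is a value for the whole gene and says nothing of its exons. The PTB proteins, which share the RNA recognition motif arrangement of the L type, were all above background. Ptbp1, the widely expressed form, had 11.24, 11.22 and 11.17. Ptbp2, known for its role in neurons, had 10.27, 9.84 and 9.87, and Ptbp3, known from blood cells, had 11.60, 11.73 and 11.74.

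Spread between the cohorts was tested with limma, which set the variance of each probe set over the 3 arrays against that of probe sets of like level. No member passed (0 of 27, Benjamini-Hochberg over all 28939 probe sets), where 6 probe sets (0.0207%) passed in all. In the simulation described below, the adjusted test called no shift of the smallest size tried, which exceeded the range of any member. The count of 0 therefore does not show that the cohorts were alike. At an unadjusted p under 0.05 there were 3 members (11.1%), Hnrnpc, Hnrnph2 and Hnrnpa0, against 790 genes (3.96%). The median SD over members was 0.085 log2 units, against 0.093 for all genes above background and 0.11 for all genes. Under quantile normalization it was 0.098, against 0.094 for genes above background. The largest, 0.38, was that of Hnrnpc (limma, unadjusted p = 0.0113, adjusted p = 0.988). Its value on array 1 was 1.61-fold that on array 2, where Hnrnph2 was the opposite, with 1.43-fold more on array 2 than on array 1 (unadjusted p = 0.0325, adjusted p = 0.988). Hnrnpa0 was 1.47-fold higher on array 1 than on array 3 (unadjusted p = 0.0372, adjusted p = 0.988).

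**Figure D2:**
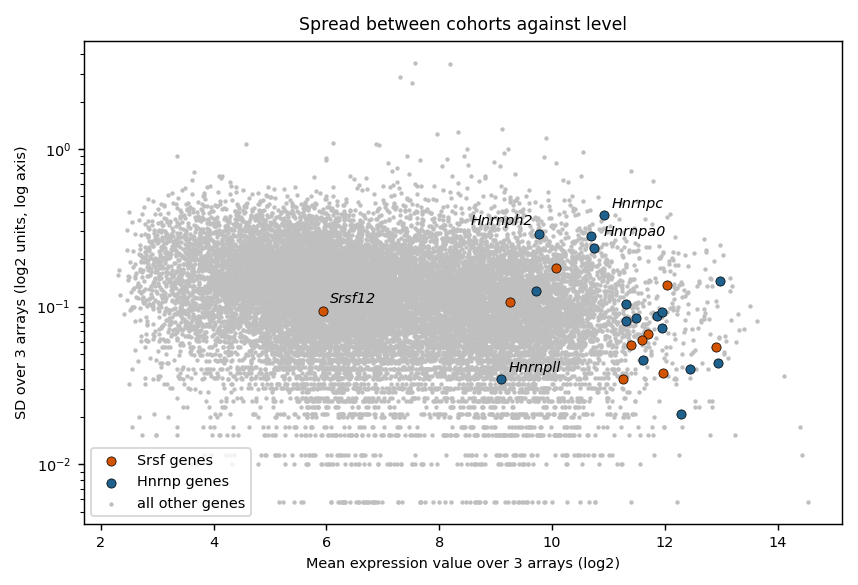
SD over the 3 arrays (y axis, log2 units on a log axis) against mean expression value (x axis, log2) for 10 Srsf genes (orange), 17 Hnrnp genes (blue) and all other genes (grey, without the 21 genes with 3 identical values). The members sit within the cloud of genes of their level, with Hnrnpc, at 0.38, the highest of them.

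Without array 1, 2 members passed an unadjusted p under 0.05 (7.41%; all genes, 4.49%), and they were not the same ones. Hnrnpa0 remained (limma, unadjusted p = 0.0242, adjusted p = 0.806) and Hnrnpul2 entered (unadjusted p = 0.0485, adjusted p = 0.899), whereas Hnrnpc (unadjusted p = 0.544, adjusted p = 0.994) and Hnrnph2 (unadjusted p = 0.696, adjusted p = 0.994) did not pass. Without array 1 the SD was 0.042 for Hnrnpc, 0.028 for Hnrnph2, 0.0071 for Hnrnpdl and 0.028 for Hnrnpf, so the spread of these genes was that of array 1 against the other arrays. Hnrnpa0 had an SD of 0.18 without it. Quantile normalization and median centring kept array 1 as the highest for Hnrnpc, Hnrnpa0 and Hnrnpdl and as the lowest for Hnrnph2, Hnrnpf and Hnrnpr. The members together deviated on average by 0.023, 0.017 and -0.040 log2 units on arrays 1, 2 and 3, and the first of these was -0.017 under quantile normalization. Array 1 held the highest value of 10 members (of all genes, 34.5%) and the lowest value of 10 members (of all genes, 39.3%). Of genes above background, 39.2% were highest and 40.5% lowest there. Array 2 held the highest value of 12 members (of all genes, 33.0%) and the lowest of 3 (27.8%). Array 3 held the highest value of 2 members (of all genes, 29.0%) and the lowest of 14 (29.4%). These counts depended on the scaling. Under quantile normalization the highest value lay on array 1 for 7 members (of all genes, 34.3%), on array 2 for 19 (33.6%) and on array 3 for 1 (29.9%). The lowest then lay on array 1 for 13 members (of all genes, 40.2%), on array 2 for 3 (28.5%) and on array 3 for 10 (29.2%). With median centring the highest lay on array 1 for 12 members (of all genes, 37.4%), on array 2 for 10 (29.9%) and on array 3 for 4 (29.7%), and the lowest on array 1 for 10 (36.2%), on array 2 for 3 (31.2%) and on array 3 for 13 (29.1%). Hnrnph2 lies on the X chromosome, and Xist differed between the cohorts as given above, but a link between them was not tested. The genomic position of the Hnrnph2 probe set used here was not examined. Its number is far from that of the Xist probe set, so its values may be those of a copy elsewhere. The other Hnrnph2 probe set is numbered near that of Xist and had an SD of 0.18 (limma, unadjusted p = 0.137).

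**Figure D3:**
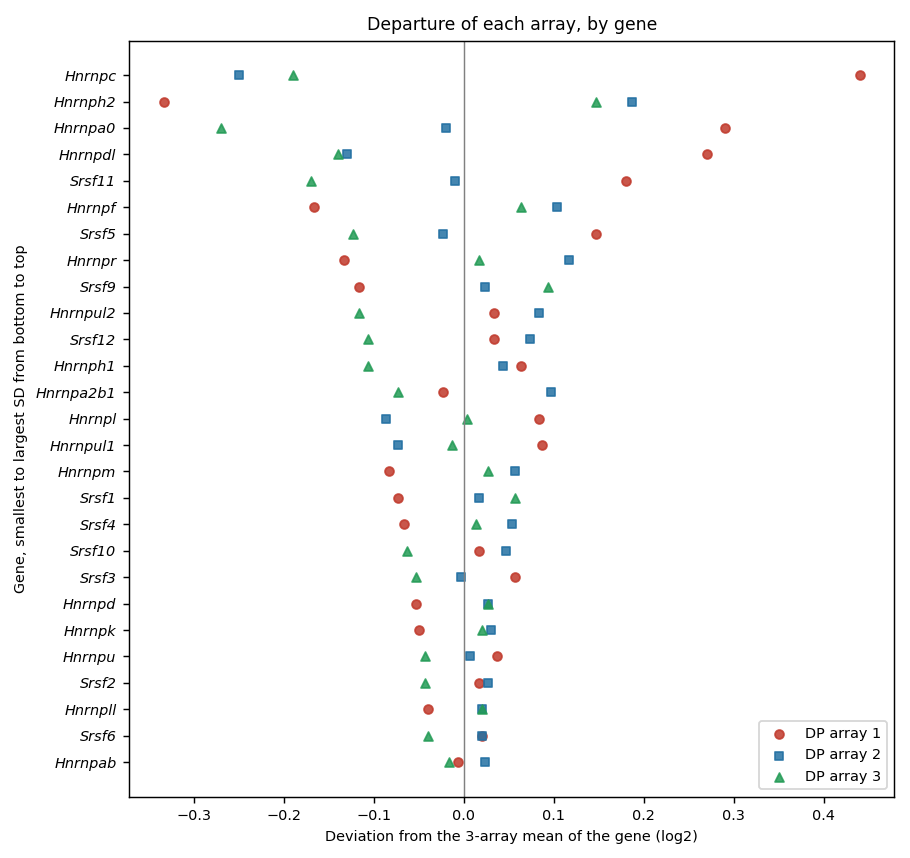
Deviation of each array from the gene's own 3-array mean (x axis, log2) for the 27 genes, ordered by SD from bottom to top. Array 1 (circles) departs upward for Hnrnpc, Hnrnpa0, Hnrnpdl, Srsf11 and Srsf5 and downward for Hnrnph2, Hnrnpf and Hnrnpr, and the lower genes stay near 0. Array 3 departs nearly as far downward for Hnrnpa0, Srsf11 and Srsf5, and array 2 nearly as far upward for Hnrnpr.

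For 6 members the array carried several probe sets, and in most cases these followed the same pattern over the cohorts. The 4 of Hnrnpf, which share 14 transcript accessions, all were lowest on array 1, with deviations there from -0.14 to -0.21. Both of Hnrnph2 were lowest on array 1, the other one with 9.41, 9.77 and 9.66. The 3 of Hnrnpk were likewise lowest there, with deviations from -0.033 to -0.070. Both of Srsf5 nearly coincided, with 12.15, 11.98 and 11.89 for the other one. Srsf10 and Srsf3 were the exceptions. The other probe set of Srsf10 had 8.71, 8.61 and 8.52, with its highest value on array 1 and not on array 2. The dimmest of Srsf3, which lists 3 of the 6 accessions of the brightest, had 9.55, 9.32 and 9.64, against 12.56, 12.46 and 12.48 for the middle one. The level of both genes thus depended on the probe set. Means were 11.39 and 8.61 for Srsf10, and 12.90, 12.50 and 9.50 for Srsf3, all above background on every array. Genome positions of these probe sets were not examined, but probe set numbers largely run by chromosome. The dimmest of Srsf3 and the other one of Srsf10 are numbered closest to a member on the gene's own chromosome. Counting members with 1 probe set, the brightest of Srsf3, Srsf10, Hnrnpf and Hnrnpk are numbered closest to members on other chromosomes. The levels given for these genes may therefore be those of copies elsewhere. Probe sets that share accessions are not independent measurements, and where a gene has near-identical copies in the genome its value may include them. This also applies to Hnrnpa1, Hnrnpa3 and Hnrnph3, which occur on this array in 15 probe sets annotated with several genes and are not analysed here, as is Srsf7.

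**Figure D4:**
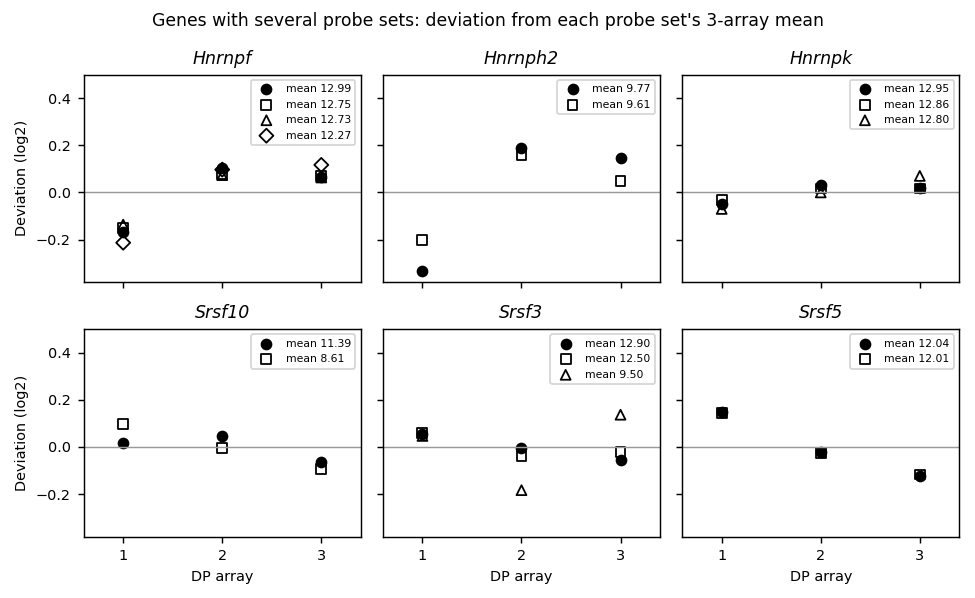
Deviation from the probe set's own 3-array mean (y axis, log2) on DP arrays 1 to 3 (x axis) for each probe set of the 6 genes with several, with the brightest filled and the others open; legends give mean values in log2. The 4 probe sets of Hnrnpf all lie lowest on array 1, between -0.14 and -0.21, whereas the dimmest of Srsf3 parts from the other Srsf3 probe sets.

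Most genes of the wider splicing machinery were above background too. The list of tissue-specific regulators was split, with a share above background not far from that of all genes. All 31 measured genes of the core list, which holds snRNP proteins, U2AF and components of the U2 and tri-snRNP particles, lay above background on every array (all genes, 40.1%), with a list median of 10.15 ± 0.08. Of these, 21 were highest on array 1 (all genes, 34.5%; genes above background, 39.2%), and the list deviated by 0.071, -0.044 and -0.027. Snrpa, Snrpb and Snrpc, proteins of the U1 particle or the common Sm ring, had 10.33 ± 0.04, 10.54 ± 0.09 and 10.48 ± 0.11. Snrpd1, of the same ring, had 10.76, 10.33 and 10.27 (limma, unadjusted p = 0.0440, adjusted p = 0.988). The 6 measured Sm genes, a set picked after its values were seen, were all highest on array 1, also under quantile normalization and median centring. Between the other arrays, on the deposited scale, 5 of these 6 were higher on array 3 than on array 2. The core list split into 15 genes higher on each and 1 equal. Of the 27 SR and hnRNP genes, 20 were higher on array 2, 5 on array 3 and 2 were equal. Of all 19938 genes, 10013 were higher on array 2 and 9347 on array 3.

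Among SR-related proteins and SR kinases, 18 of 19 lay above background on every array (all genes, 40.1%), with a list median of 10.67 ± 0.04. The exception was Srpk3, a kinase known from muscle, with 6.50, 6.44 and 6.38. Tra2a, an SR-related activator, had 10.84, 10.47 and 10.32 (limma, unadjusted p = 0.0439, adjusted p = 0.988), whereas its relative Tra2b had 12.34, 12.26 and 12.32. The speckle scaffolds Srrm1 and Srrm2 had 10.32 ± 0.08 and 11.79 ± 0.02.

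Of 29 other hnRNP-like genes, 24 lay above background on every array (all genes, 40.1%), with a list median of 10.38 ± 0.02. The 5 that did not were Pcbp4, Ralyl, Khdrbs2, Khdrbs3 and Msi1, with means of 7.28, 4.61, 4.92, 6.47 and 6.51. Their relatives Pcbp1 (10.90 ± 0.18), Raly (10.87 ± 0.24), Khdrbs1 (11.40 ± 0.01) and Msi2 (10.38 ± 0.06) did, the last 3 named after their values were seen. Fubp1, which binds single-stranded DNA and RNA elements, had 10.96, 11.46 and 11.40 (limma, unadjusted p = 0.0387, adjusted p = 0.988).

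Regulators known for tissue-specific splicing were detected in part. Of 30, 15 lay above background on every array (all genes, 40.1%), 14 on none, and 1, Nova2, on array 2 alone (7.39, 7.62 and 7.33). With the 99th percentile as the limit 13 lay above it on every array (all genes, 31.9%). With the background median plus 1 log2 unit 16 did (all genes, 45.5%). The CELF genes split within their family, with 10.42 ± 0.10 for Celf1 and 11.27 ± 0.06 for Celf2, against 6.58 ± 0.12 for Celf3 and 6.36 ± 0.18 for Celf4, both below background on every array. Mbnl1, Mbnl2 and Mbnl3, with 11.84 ± 0.06, 10.63 ± 0.02 and 9.87 ± 0.05, were above it, and Rbfox1 and Rbfox3, with 5.95 ± 0.09 and 6.65 ± 0.06, were below it. These 5 genes were named after their values were seen. Rbfox2 had 6.26, 6.75 and 6.86, below background throughout (limma, unadjusted p = 0.0480, adjusted p = 0.988). In none of these 4 lists did a gene pass the adjusted test, and each held 1 gene with an unadjusted p under 0.05, which is 3.23% to 5.26% of a list, against 3.96% of all genes. Without array 1 none of these 4 genes passed (limma, unadjusted p = 0.553 for Snrpd1, 0.151 for Tra2a, 0.517 for Fubp1 and 0.512 for Rbfox2). The core list then held 2 others, Snrpe (unadjusted p = 0.0137, adjusted p = 0.728) and Snrnp70 (unadjusted p = 0.0320, adjusted p = 0.846), and the other 3 lists held none.

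**Figure D5:**
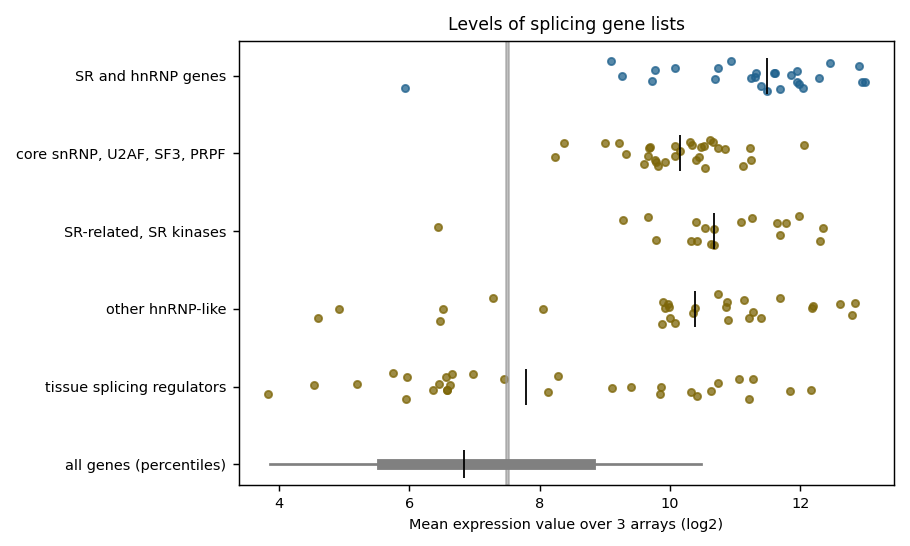
Mean expression value over the 3 arrays (x axis, log2) for each gene (points, spread vertically for legibility) of the 27 SR and hnRNP genes and of 4 other splicing lists, with a tick at each list's median, and for all genes the 5th to 95th percentiles (thin bar), the 25th to 75th (thick bar) and the median. The SR and hnRNP median is 11.49 and that of all genes 6.85, and the tissue splicing regulators fall on both sides of the grey background band.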

How the data were processed

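The deposited table holds log2 values at 2 decimals, a unit read from their range (1.60 to 14.94). Per the submitters' processing notes they were made with the R package affy. Its version, its settings and a genome build were not given in the sources used here. All 3 arrays have nearly 1 median over all genes (6.84, 6.86 and 6.85), which would hide a global difference between cohorts. At the higher levels of the members the distributions were less alike. Quantile normalization moved the mean member deviation from 0.023 to -0.017 on array 1. On array 2 it moved from 0.017 to 0.051, and on array 3 from -0.040 to -0.034. Of 35556 probe sets, 6617 numbered below the first annotated one were left out as controls. Symbols came from the platform annotation: 21789 probe sets have 1 symbol, 1621 several and 12146 none. All 27 members kept their symbol when matched by gene ID to RefSeq (GRCm38.p6, names only).

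Variance was tested with limma 3.58.1 in R 4.3.3, by an intercept-only fit and an F test against a robust, mean-dependent prior, with Benjamini-Hochberg adjustment over all probe sets (threshold 0.05). In a simulation the adjusted test called large shifts of 1 array but no shift of the smallest size tried, which was wider than the range of any member over the cohorts. Python 3.11.15 with pandas 2.3.3 and numpy 2.4.6 did the rest. With 3 arrays in 1 group, precision is limited by their number. The p-values only set the spread over these arrays against that of probe sets of like level. With 1 array per cohort, differences between cohorts and differences between array preparations cannot be told apart. Members, lists, background genes and the naming rule were chosen with earlier results of these data known. Full values are given for Hnrnpl, Hnrnpll, members below background, the 8 largest and 4 smallest SDs, unadjusted p under 0.05, several probe sets and the first of each family. In other lists the first 4 genes, up to 8 on the smaller side of the limit and those with an unadjusted p under 0.05 are named.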

Additional observations from a re-analysis of the deposited data

How the results depend on the processing

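Recomputing 49 results under the alternatives gave 439 values, of which 433 stayed within their replicate spread, on the same side of the threshold or, for counts, within 1.5 times. Most of the values were SDs of single members, judged only by the call of the adjusted test. With adjusted p-values far above the threshold these calls could hardly change, so the total says little about stability. The SD of Hnrnpc was 0.38, against 0.042 without array 1, and was counted as unchanged. The alternatives changed the normalization (quantile, or centring on the median), the arrays used, the probe set of a gene, the background limit, the prior or the filter. The count of members above background was 26 under each of them. The number of members past the adjusted variance test was 0 under each, and the number at an unadjusted p under 0.05 ran from 1 to 3. Given the simulation described above, the count of 0 says little about stability. The member deviation on array 1 was -0.017 under quantile normalization, against 0.023. The list level was 11.16 as a mean over members, against a median of 11.49, a difference that includes Srsf12. With the mean over probe sets the core list's median was 10.07, against 10.15, and that of the SR-related list 10.63, against 10.67. Leaving out 1 array gave medians from 10.38 to 10.41 for the other hnRNP-like genes, against 10.38. Over all probe sets 6 passed the adjusted test, against 3 with a prior that was not robust and 0 with a prior without trend, with dim probe sets left out or with all probe sets kept. Leaving out 1 array gave from 0 to 18 (18 without array 1, 0 without array 2 or 3). Alternatives chosen after seeing the data (these calls, the array holding the highest value under each scaling, and single genes without array 1) changed the count of members highest on array 2 to 19 under quantile normalization, against 12, that of array 3 to 1 under quantile normalization and 4 with median centring, against 2, and that of core genes highest on array 2 to 7 under quantile normalization, against 4. The cause of these shifts was not tested. No paired analysis was possible because all arrays belong to 1 group. Genes near the background limit, such as Nova2, depend on where it is set, and 3 arrays leave small differences between cohorts undetected.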
